A study of Rattus norvegicus with 29 samples.

Results

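The genes described here encode the semaphorins of classes 3 to 7, the plexin and neuropilin receptors, the Eph receptors and ephrins, and the Slit proteins with their Robo receptors. Members were taken by rat gene symbol among 16238 genes (18092 RefSeq transcripts), and 44 genes matched. A mean of at least 0.5 CPM (read counts scaled to the same total of assigned reads in each library) over the 29 libraries was then required, which left 43 members: 16 semaphorins, 4 plexins, 2 neuropilins, 6 EphA and 3 EphB receptors, 4 ephrin-A and 3 ephrin-B ligands, 3 Slits and 2 Robos. Sema3a alone fell below the minimum, with 106 reads in all and a mean of 0.196 CPM. Epha5 was the 1 member listed with several transcripts, and its transcript with most reads (NM_001169137, 4899 of 5662 reads) stands for it. Other genes of these families, among them Plxna1, Plxna4, Plxnd1, Sema3f, Sema6a, Ephb3 and Robo3, were not analysed here.

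Whole ganglia of the dorsal roots C6 to C8, which hold the sensory neurons of the forelimb, came from the affected side of elderly Lister Hooded rats, with 1 poly-A RNA library per rat. NT3 rats had a stroke of the cortex on 1 side followed by subcutaneous infusion of neurotrophin-3 (NT3), a growth factor on which the sensory neurons of muscle depend. Vehicle rats had the same stroke and an infusion without the factor. The third arm is called sham, after the sample labels, and the series text describes it as naïve. Stroke and infusion are named for NT3 and vehicle rats alone, so between vehicle and sham rats their parts cannot be told apart. Each arm was sampled at week 11 and week 5, with 5 libraries per group except for 4 in week 5 sham rats. The stroke lay in the brain, and the labels name no injury to the ganglia. In whole tissue, fewer cells of a type and less RNA per cell cannot be told apart.

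Semaphorins steer or repel growing axons through plexins, and most of the secreted class 3 members use a neuropilin as the part that binds the ligand. Eph receptors are tyrosine kinases that bind ephrins on neighbouring cells, with ephrin-A ligands held in the membrane by a lipid anchor and ephrin-B ligands spanning it, and both sides of the contact can signal. Slit proteins are secreted and act through Robo receptors, repelling many axons and promoting the branching of sensory axons. In adult ganglia these families are made by neurons, glia, vessels and connective tissue alike.

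Assigned reads numbered 9555685 in week 11 vehicle rat 27 and 16703574 to 22773108 in the other 28 libraries. Sensory neuron genes were present in every library, with Avil, an actin-binding protein of sensory neurons, at 1184 to 1829 CPM. A list of 7 markers of central nervous tissue, of which 6 were tested, summed to 428 CPM in rat 27 and to 50.9 to 169 CPM elsewhere. Most of the sum elsewhere was the glial gene Gfap, at 41.6 to 159 CPM, against 237 CPM in rat 27. The markers Mobp and Nrgn were at most 1.39 and 2.65 CPM elsewhere, against 89.4 and 64.9 CPM in rat 27. The share of reads outside annotated features differed among rats, at 25.4% in week 11 sham rat 8, 27.0% in week 11 sham rat 11 and 38.3% in rat 27, and averaged 32.3% ± 1.95 in week 11 NT3, 33.8% ± 3.11 in week 11 vehicle and 30.2% ± 3.82 in week 11 sham rats (SD, n = 5 each). At week 5 it averaged 32.8% ± 1.77 in NT3 and 33.0% ± 1.83 in vehicle rats (SD, n = 5 each), against 31.2% ± 1.15 in sham rats (SD, n = 4). The first principal component of all tested transcripts held 44.0% of the variance.

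No guidance gene passed the test in any of 14 comparisons of arms or weeks. All 43 members were among the 12556 transcripts tested with edgeR's quasi-likelihood test and Benjamini-Hochberg adjustment, and 0 had an adjusted p under 0.05. DESeq2 also called 0 members in all 14 comparisons. The limma voom fit with quality weights, which gives less weight to libraries that stand apart, called 5 members for vehicle against sham at week 5 (1079 transcripts in all), 7 for week 11 against week 5 in sham rats (2209 in all), and 0 in the other 12. In the whole table edgeR called 0% of transcripts in 13 of the comparisons and 0.844% (106 transcripts) for week 11 against week 5 in vehicle rats. The values that follow are therefore levels and differences with their errors, and edgeR called none of the differences between groups.

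With the weeks averaged, the members' median log2 fold change was 0.01 for NT3 against vehicle, with 24 of 43 above 0, beside -0.01 for all tested transcripts. For NT3 against sham the median was 0.09, with 32 of 43 above 0, beside 0.01 for all transcripts. For vehicle against sham it was 0.03, with 23 of 43 above 0, beside -0.01. These 3 comparisons share their libraries in pairs, so their signs are not separate pieces of evidence. Counts at an unadjusted p under 0.05 were 2 members higher and 0 lower for NT3 against vehicle (4.65% of members, beside 3.32% of all transcripts, with 1.98% higher and 1.34% lower), 2 higher and 1 lower for NT3 against sham (6.98% of members, beside 10.6% of all, with 2.75% higher and 7.85% lower), and 8 higher and 1 lower for vehicle against sham (20.9% of members, beside 16.9% of all, with 8% higher and 8.86% lower). In either direction these shares were near those of the whole table. For vehicle against sham the members at that level lay mostly above 0, whereas all transcripts divided about evenly. That contrast comes from the fit of group means alone. When each rat's share of reads outside features was added to the fit, 0 members reached that level. In that fit 24 of 43 members were above 0 for vehicle against sham, with a median of 0.01.

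**Figure D1:**
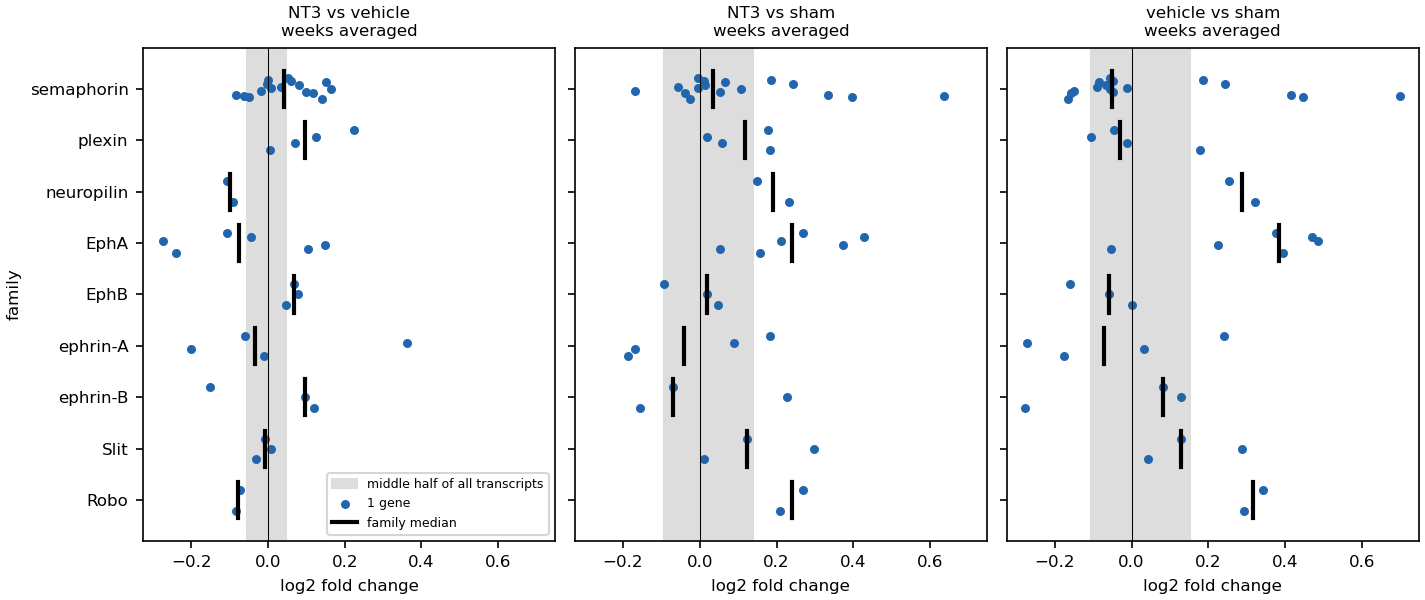
Log2 fold change of each guidance gene, by family, in the 3 comparisons of arms with the weeks averaged; each point is 1 gene, the short line is the family's median and the grey band holds the middle part of all tested transcripts (25th to 75th percentile). The EphA, neuropilin and Robo medians lie above 0 for vehicle against sham (0.39, 0.29 and 0.32, and -0.02, 0.15 and 0.07 with the percentage of reads outside annotated features as covariate), and no point is a call.

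The semaphorins are described by class. The secreted class 3 members Sema3c, Sema3d and Sema3e had the widest swings among rats, at 17.2 to 134 CPM, 2.61 to 41.8 CPM and 7.21 to 31.5 CPM. Their estimates against sham were 0.45 (SE 0.30), 0.70 (SE 0.41) and 0.41 (SE 0.20) in vehicle rats, on the log2 scale with weeks averaged. When the percentage of reads outside annotated features was entered as a covariate, they were 0.02 (SE 0.25), 0.01 (SE 0.30) and 0.08 (SE 0.15). Sema3b and Sema3g, the other members of the class, spanned 244 to 508 CPM and 70.4 to 128 CPM, and their estimates for vehicle against sham were -0.17 (SE 0.10) and -0.16 (SE 0.09). Of the 5 class 3 genes 3 were above 0 in that comparison, none past the test.

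Class 4 semaphorins are membrane proteins that include Sema4d, a ligand of plexin-B receptors. All 6 class 4 estimates were below 0 for vehicle against sham, with a median of -0.06 and a range of -0.15 to -0.01, whereas 2 of 6 were above 0 with the covariate (median -0.04). Across rats Sema4a spanned 8.77 to 18.1 CPM, Sema4b 38.5 to 74.3 CPM, Sema4d 68.6 to 114 CPM and Sema4f 84.5 to 152 CPM. The smallest p of the family over the 9 comparisons of arms belonged to Sema4g (NM_001108526), a transmembrane member, at week 5. It stood at 22.7, 24.9, 27.4, 30.1 and 30.2 CPM in week 5 vehicle rats, against 29.8, 30.5, 33.2 and 33.4 CPM in week 5 sham rats. The 3 lowest vehicle rats lay below all sham rats and the other 2 overlapped them. The log2 fold change was -0.23 (SE 0.10, adjusted p = 0.539 by edgeR's quasi-likelihood test). The lowest class 4 estimate for vehicle against sham at week 5 was -0.28 with the covariate.

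Sema4c (NM_001106902), a ligand of plexin-B2, had the second smallest p of all members for NT3 against vehicle. Its CPM ran from 73.6 through a median of 87.9 to 105 in 10 NT3 rats, and from 66.0 through 79.4 to 98.2 in 10 vehicle rats. The arms overlapped over most of their range, and the log2 fold change was 0.16 (SE 0.07, adjusted p = 1, edgeR). The largest class 4 estimate for NT3 against vehicle was 0.17 with the covariate. Sema4b was the semaphorin whose groups did not overlap at week 5. It stood at 42.8, 46.6, 48.2, 55.1 and 55.3 CPM in NT3 rats and at 49.4, 49.7, 52.4, 53.5 and 55.1 CPM in vehicle rats, against 56.6, 57.2, 58.6 and 58.9 CPM in sham rats. Every stroke rat lay below every sham rat, as for 0.629% of all transcripts in NT3 against sham and 2.17% in vehicle against sham, yet the log2 fold changes were -0.22 (SE 0.12) and -0.15 (SE 0.12), neither past the test. At week 11 the groups overlapped, with sham rats at 45.7 to 74.3 CPM.

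Among classes 5 to 7, Sema6d (NM_001107768), a transmembrane ligand of plexin-A1, was the member with the second smallest p for NT3 against sham. It ran from 154 through a median of 184 to 197 CPM in 10 NT3 rats and from 119 through 169 to 192 CPM in 9 sham rats. The sham arm held 3 rats below all NT3 rats (119, 121 and 129 CPM, namely rats 11, 8 and 74). Its estimate was 0.19 (SE 0.08, adjusted p = 0.461, edgeR) on the log2 scale, and 0.09 with the covariate. Sema5a, which has thrombospondin repeats in place of the usual extracellular end, spanned 71.2 to 188 CPM, Sema6b 14.1 to 24.6 CPM and Sema6c 27.4 to 45.7 CPM. Sema7a, the lipid-anchored semaphorin, which promotes axon growth through integrins, had the least spread of the 43 members.

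Plexins and neuropilins are the receptors for these ligands. All 4 plexins had estimates above 0 for NT3 against vehicle, with a median of 0.10 and none past the test. All 4 stayed above 0 with the covariate, with a median of 0.09 and a range of 0.05 to 0.27. Plxnb3 (NM_001135878), a plexin-B that binds Sema5a, had the smallest p of any member in that comparison. At week 11 it stood at 140.3, 147, 151, 158 and 162 CPM in NT3 rats, against 120.4, 123, 128, 135 and 135 CPM in vehicle rats. These 2 groups did not overlap, which held for 0.151% of all transcripts in this direction. At week 5 NT3 rats had 119, 127, 142, 152 and 155 CPM, against 94.9, 101, 134, 136 and 136 CPM in vehicle rats, with overlap. The averaged log2 fold change was 0.22 (SE 0.10, 95% interval 0.02 to 0.42, adjusted p = 1, edgeR), and no transcript of the whole table passed the adjustment in this comparison. Leaving out single libraries kept it between 0.19 and 0.25.

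Markers of several other cell types also had estimates above 0 for NT3 against vehicle, and their part in the plexin values was not tested. All 7 fibroblast, 8 endothelial, 5 pericyte and 8 macrophage markers tested did so with weeks averaged, with medians of 0.28, 0.16, 0.11 and 0.17, and none passed the adjusted test. At week 11, where the Plxnb3 groups did not overlap, 5, 6, 4 and 2 of them were above 0, with medians of 0.10, 0.13, 0.08 and -0.25. At week 5 the counts were 7, 7, 5 and 8, with medians of 0.47, 0.24, 0.18 and 0.53. The other marker lists were divided with weeks averaged. Sensory neuron markers had 3 of 9 above 0 (median -0.02) and myelinating Schwann cell markers 4 of 6 (0.04). Satellite glia markers had 3 of 5 above 0 (0.02) and central nervous tissue markers 2 of 6 (-0.40). These counts weigh each marker alike, and some markers were read at low levels from 1 of several transcripts. In NT3 rats Calca averaged 4.26 CPM, Mbp 4.90 CPM, Apoe 0.640 CPM and Snap25 0.384 CPM. Summed fibroblast markers ran from 955 to 1480 CPM in NT3 rats and from 712 to 1378 CPM in vehicle rats, and summed endothelial markers from 194 to 277 CPM in NT3 rats and from 193 to 255 CPM in vehicle rats. Plxna2, a receptor for class 3 and class 6 semaphorins, spanned 136 to 311 CPM across rats. Plxna3, which pairs with neuropilins, spanned 93.6 to 155 CPM, and Plxnb2, the receptor of Sema4c, 74.7 to 129 CPM.

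Both neuropilins were among the 9 members with an unadjusted p under 0.05 for vehicle against sham. Nrp2 (NM_030869), the binding subunit for Sema3c and Sema3f, ran from 70.5 through a median of 78.9 to 98.4 CPM in 10 vehicle rats and from 38.8 through 68.6 to 89.2 CPM in 9 sham rats. Its lowest value was that of week 11 sham rat 11, and 6 of the 9 sham rats lay below the lowest vehicle rat. On the log2 scale vehicle against sham gave 0.26 (SE 0.10, adjusted p = 0.269, edgeR). NT3 rats had 62.8 to 85.9 CPM. Nrp1, the binding subunit for Sema3a, spanned 33.5 to 84.4 CPM, with 0.32 (SE 0.14, adjusted p = 0.281, edgeR) for vehicle against sham. With the covariate Nrp2 had 0.18 (SE 0.10) and Nrp1 0.11 (SE 0.12).

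EphA receptors, which mostly bind ephrin-A ligands, had estimates above 0 against sham, none past the test. For vehicle against sham 5 of 6 were above 0 with a median of 0.39, and for NT3 against sham all 6 were above 0 with a median of 0.24. With the covariate these were 2 of 6 with a median of -0.02 and 4 of 6 with a median of 0.01. For NT3 against vehicle the median was -0.07, with 2 of 6 above 0, against 0.04 and 4 of 6 with the covariate. Epha4 (NM_001162411), a receptor that binds ephrins of both classes, stood at 9.45, 13.1, 14.1, 17.1 and 30.9 CPM in week 11 vehicle rats, against 5.09, 7.45, 11.6, 13.8 and 15.003 CPM in week 11 sham rats. At week 5 it stood at 11.5, 12.1, 13.2, 14.3 and 17.6 CPM in vehicle rats, against 7.82, 10.2, 12.1 and 13.9 CPM in sham rats. The groups overlapped at both weeks, and the 30.9 CPM of rat 27 was the highest value of all 29 libraries. The averaged log2 fold change was 0.49 (SE 0.20, 95% interval 0.08 to 0.89, adjusted p = 0.273, edgeR).

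That estimate rests in part on the libraries at both ends of the range. It was 0.33 without rat 27, 0.24 without rats 8 and 27, and 0.06 with that covariate. Rat 27 carried the high central nervous tissue markers, with Mobp, an oligodendrocyte myelin gene, at 89.4 CPM and Nrgn, a forebrain neuron gene, at 64.9 CPM, and also held the highest values of Epha1 (1.65 CPM), Epha2 (8.86 CPM), Efnb3 (9.27 CPM) and Slit3 (41.3 CPM). The part of these markers in those values was not tested beyond leaving the library out. Across rats Epha5, a receptor for ephrin-A ligands, spanned 1.58 to 14.5 CPM, Epha7 4.67 to 15.1 CPM and Epha3 0.182 to 2.09 CPM. Epha1 and Epha3, with 403 and 651 reads in all, were too shallow for small differences to be detectable.

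EphB receptors are the usual partners of ephrin-B ligands. Ephb1 spanned 27.0 to 42.6 CPM, and its log2 fold change for NT3 against vehicle was 0.05 (SE 0.06, 95% interval -0.09 to 0.18). Ephb6, a member whose kinase domain is inactive, spanned 42.6 to 93.4 CPM. Ephb2 (NM_001127319), a receptor of ephrin-B ligands, had the smallest p of the 3 for NT3 against vehicle at week 11. It stood at 7.86, 7.99, 8.35, 8.79 and 8.93 CPM in NT3 rats, against 4.03, 6.62, 7.68, 7.75 and 8.03 CPM in vehicle rats. Only the highest vehicle rat reached the NT3 range, and the lowest, rat 57, stood apart. Its log2 fold change was 0.30 (SE 0.16, adjusted p = 1, edgeR) and 0.18 without rat 57.

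**Figure D2:**
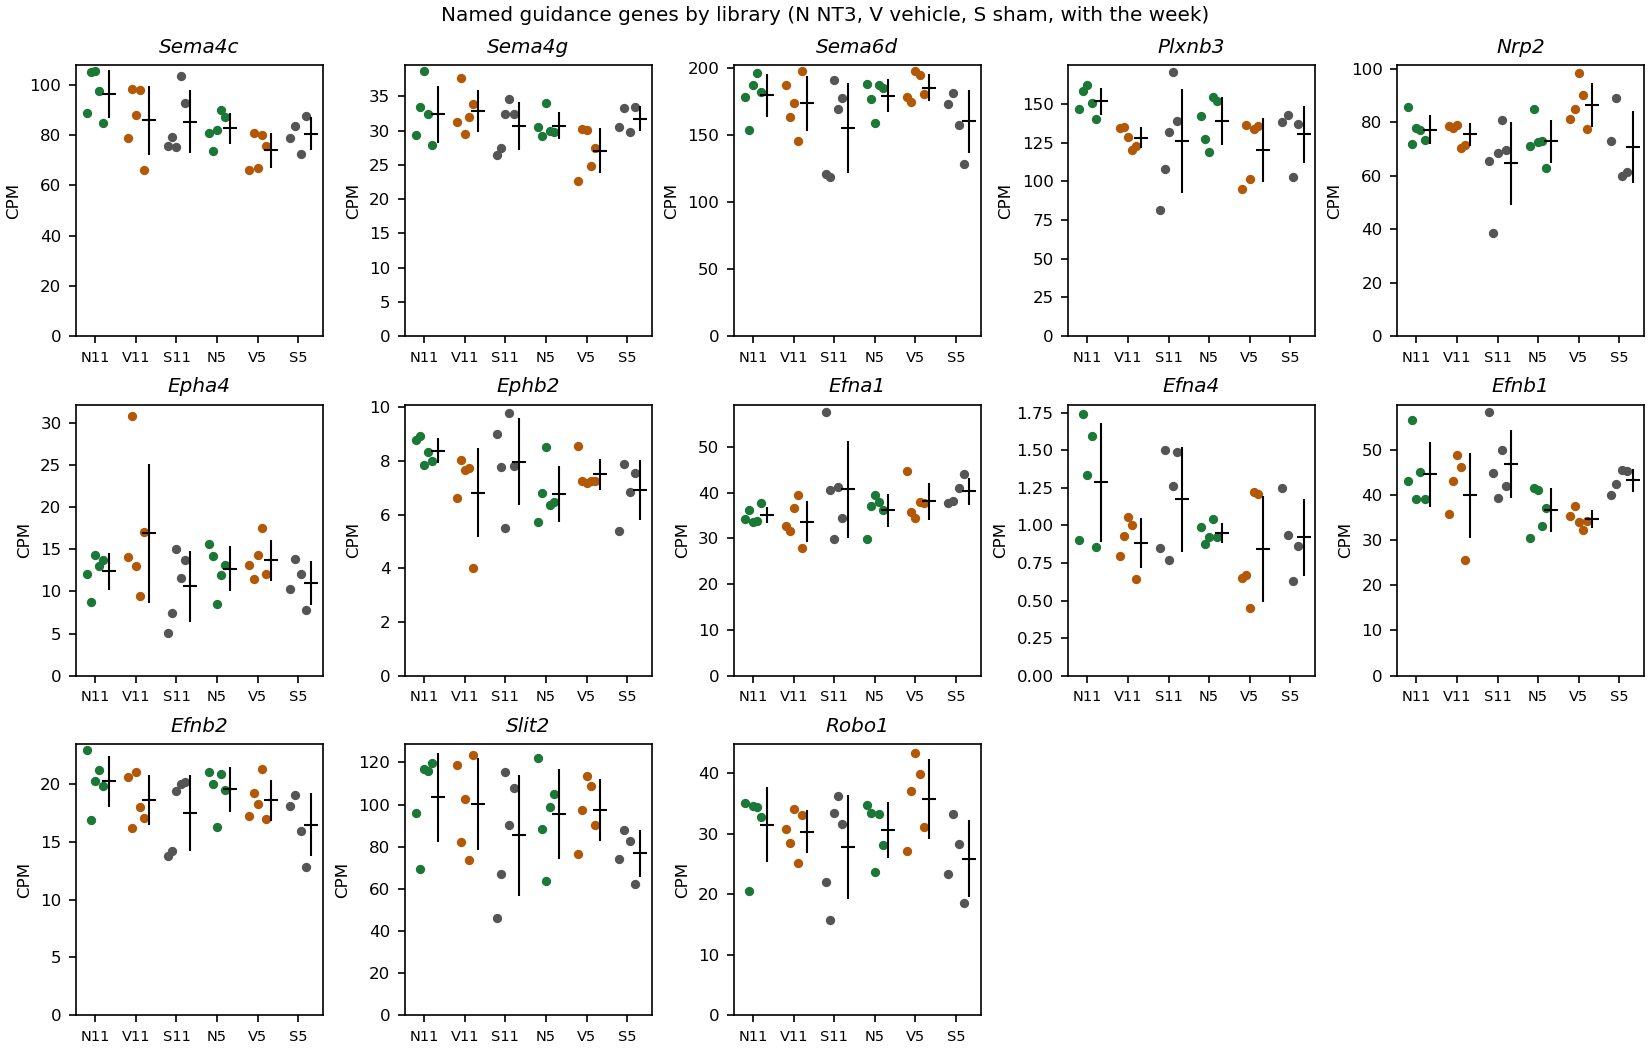
CPM by library of the 13 members described by library, with NT3, vehicle and sham rats at week 11 and week 5; each point is 1 rat and the black mark is the group mean with its SD. Plxnb3 in week 11 NT3 rats (140.3 to 162 CPM) lies above week 11 vehicle rats (120.4 to 135 CPM), and Efnb1 in week 5 vehicle rats (32.2 to 37.5 CPM) below week 5 sham rats (40.0 to 45.4 CPM). Such a lack of overlap held for 0.151% and 2.17% of all transcripts in these comparisons and directions.

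Among the ligands of these receptors, Efnb1 (NM_017089), a transmembrane ephrin, had the smallest p of any member for vehicle against sham. At week 5 it stood at 32.2, 34.0, 34.3, 35.2 and 37.5 CPM in vehicle rats, against 40.0, 42.3, 45.2 and 45.4 CPM in sham rats, with no overlap. Such a lack of overlap in this direction held for 2.17% of all transcripts. At week 11 vehicle rats had 25.5, 35.7, 43.1, 46.2 and 48.8 CPM, against 39.3, 42.0, 44.7, 49.9 and 58.3 CPM in sham rats, and the groups overlapped. The averaged log2 fold change was -0.28 (SE 0.10, 95% interval -0.48 to -0.07, adjusted p = 0.269, edgeR), and -0.16 with the covariate. At week 5 all 7 fibroblast and 8 macrophage markers also had estimates below 0 for vehicle against sham, with medians of -0.40 and -0.50. At week 11, 5 of 7 and 7 of 8 were above 0, with medians of 0.07 and 0.38. Their part in the Efnb1 values was not tested.

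Efnb2 (NM_001107328), the ephrin of arteries and of some neurons, had the smallest p of any member for NT3 against sham. It ran from 16.3 through a median of 20.2 to 23.0 CPM in 10 NT3 rats and from 12.8 through 18.1 to 20.2 CPM in 9 sham rats. The arms overlapped, and 4 sham rats (12.8, 13.8, 14.2 and 16.0 CPM, namely rats 74, 8, 11 and 64) lay below every NT3 rat. NT3 against sham gave 0.23 on the log2 scale (SE 0.09, adjusted p = 0.461, edgeR). With the covariate the largest of the 3 ephrin-B estimates in this comparison was 0.16, and 1 of the 3 was above 0. Efnb3 spanned 0.805 to 9.27 CPM, with the highest value in rat 27 and 4.92 CPM in the next rat.

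Of the lipid-anchored ephrins, Efna1 (NM_053599), which is made by vessels and epithelia among others, had estimates below 0 against sham in both stroke arms. At week 11 it had 33.5, 33.9, 34.2, 36.2 and 37.7 CPM in NT3 rats and 27.8, 31.7, 32.7, 36.6 and 39.5 CPM in vehicle rats, against 29.8, 34.4, 40.6, 41.3 and 57.7 CPM in sham rats. The 3 ranges overlapped, and the sham value of 57.7 CPM is that of rat 8. For vehicle against sham at week 11 the log2 fold change was -0.27 (SE 0.12, adjusted p = 0.507, edgeR), -0.12 without rat 8 and -0.05 with the covariate. For NT3 against sham with weeks averaged it was -0.19 (SE 0.09, adjusted p = 0.461, edgeR), -0.11 without rat 8 and -0.06 with the covariate.

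Efna4 (NM_001107692) was a gene of few reads, 553 in all. At week 11 it stood at 0.857, 0.905, 1.33, 1.59 and 1.74 CPM in NT3 rats, against 0.644, 0.799, 0.927, 1.00 and 1.06 CPM in vehicle rats. The 3 highest NT3 rats lay above all vehicle rats and the other 2 within their range. The log2 fold change was 0.54 (SE 0.26, adjusted p = 1, edgeR) at week 11 and 0.36 (SE 0.19) with weeks averaged. The largest ephrin-A estimates for NT3 against vehicle with the covariate were 0.53 at week 11 and 0.36 with weeks averaged. Efna2 spanned 0.5002 to 1.69 CPM and Efna5 8.23 to 21.9 CPM. Efna5 had 0.24 (SE 0.12) for vehicle against sham, and 0.14 with the covariate.

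With weeks averaged, all 5 Slit and Robo genes had estimates above 0 for vehicle against sham and for NT3 against sham. The medians were 0.29 and 0.21, and with the covariate all 5 remained above 0, with medians of 0.07 and 0.08. In the same fit by week, vehicle against sham had 2 of 5 above 0 at week 11 (median -0.10) and 5 of 5 at week 5 (0.15). NT3 against sham had 5 of 5 above 0 at week 11 (0.08) and 3 of 5 at week 5 (0.11). Slit2 (NM_022632), the ligand known to promote branching of sensory axons, ran from 63.9 through a median of 102 to 122 CPM in 10 NT3 rats and from 46.0 through 82.7 to 116 CPM in 9 sham rats. The arms overlapped, with sham rats 8 and 74 (46.0 and 62.2 CPM) below all NT3 rats and 4 NT3 rats above all sham rats. The log2 fold change for NT3 against sham was 0.30 (SE 0.15, 95% interval -0.01 to 0.61, adjusted p = 0.461, edgeR) and 0.10 with the covariate. Slit1 spanned 81.4 to 279 CPM and Slit3 13.8 to 41.3 CPM.

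Robo1 (NM_022188), a receptor for all 3 Slits, stood at 27.2, 31.1, 37.0, 39.9 and 43.4 CPM in week 5 vehicle rats, against 18.5, 23.4, 28.3 and 33.3 CPM in week 5 sham rats. The groups overlapped between 27.2 and 33.3 CPM. For vehicle against sham at week 5 this is 0.46 on the log2 scale (SE 0.21, adjusted p = 0.539, edgeR), and 0.30 with the covariate; the voom fit gave 0.54 and called it. In week 5 NT3 rats it stood at 23.6, 28.2, 33.2, 33.4 and 34.8 CPM. Robo2, the other receptor measured, spanned 155 to 481 CPM and had a log2 fold change of -0.07 (SE 0.16, 95% interval -0.40 to 0.25) for NT3 against vehicle.

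The difference of NT3 against vehicle between week 11 and week 5 was tested for each member. EdgeR's test called 0, and 0 members had an unadjusted p under 0.05, beside 3.01% of all transcripts. At week 11 alone 33 of 43 members were above 0 for NT3 against vehicle, with a median of 0.05. Of all transcripts 50.75% were above 0, with a median of 0.002. At week 5 alone 19 of 43 members were above 0, with a median of -0.03. In the fit with the covariate 34 of 43 members and 6918 of 12556 transcripts were above 0 at week 11. At week 5 these were 19 of 43 and 5709 of 12556. At an unadjusted p under 0.05 there was 1 member at week 11 (2.33% of members, 1.52% of all transcripts) and 0 at week 5 (4.99% of all). The corresponding difference for vehicle against sham gave 1 member at that level, Sema4g at 0.33 (2.33% of members, 3.06% of all). At week 5, 6 members reached that level for vehicle against sham (14% of members, 8.38% of all), and at week 11, 2 did (4.65% of members, 9.78% of all). NT3 against sham gave 0 members at week 11 (9.12% of all) and 0 at week 5 (2.4% of all).

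Week 11 was compared with week 5 within each arm, and the lowest adjusted p of any member in the 14 comparisons came from vehicle rats. Sema4a (NM_001012078), a transmembrane semaphorin that also acts in immune cells, stood at 10.7, 12.03, 12.1, 16.1 and 18.1 CPM in week 11 vehicle rats, against 8.77, 9.34, 10.3, 11.3 and 11.5 CPM in week 5 vehicle rats. Of the week 11 rats 4 of 5 lay above all week 5 rats, and the 2 highest were rats 50 and 27. The log2 fold change was 0.42 (SE 0.12, adjusted p = 0.106, edgeR), against 0.17 (SE 0.12) in NT3 rats and 0.14 (SE 0.13) in sham rats. Without week 11 vehicle rat 17 the estimate was 0.50 and passed the test. Rat 17 was the lowest of its group, at 10.7 CPM, so leaving it out could only raise the week 11 level. The estimate without rat 27, the highest at 18.1 CPM, is not reported here. Summed macrophage markers ran from 88.8 to 243 CPM in week 11 vehicle rats and from 46.0 to 61.6 CPM in week 5 vehicle rats, and their part in the Sema4a values was not tested. Members at an unadjusted p under 0.05 numbered 3 in vehicle rats (6.98% of members, 8.82% of all), 2 in NT3 rats (4.65%, 1.58% of all) and 0 in sham rats (3.73% of all).

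Signalling partners of the 3 systems were read from lists written with earlier results of these data known, and none of their genes was called for the averaged comparisons of arms. Of 20 tested semaphorin partners, 10 were above 0 for NT3 against vehicle, 14 for NT3 against sham and 10 for vehicle against sham. Gsk3b, a kinase that lies below semaphorin signals, had 0.39 (SE 0.15) for vehicle against sham. Cdk5, a neuronal kinase, had -0.15 (SE 0.06) for NT3 against sham.

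Of 16 tested Eph and ephrin partners 6, 10 and 11 were above 0 in the same 3 comparisons. Kalrn, an exchange factor for Rac, had -0.30 (SE 0.12) for NT3 against vehicle, and Itsn1, an exchange factor for Cdc42, and Chn2, a GTPase-activating protein for Rac, had 0.21 (SE 0.09) and 0.20 (SE 0.10) for vehicle against sham. Of 13 Slit and Robo partners 7, 9 and 8 were above 0. The Robo-binding GTPase-activating proteins had 0.32 (SE 0.10, adjusted p = 0.269, edgeR) for Srgap1 and 0.29 (SE 0.12) for Srgap3 for vehicle against sham, and 0.19 (SE 0.07) for Srgap2 for NT3 against sham.

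Members varied among the rats of 1 group as well as between groups. The members' median biological coefficient of variation was 0.158, beside 0.140 for all tested transcripts. Sema3d (NM_001104633), a secreted semaphorin, had the largest, 0.595, with a 16.1-fold span from 2.61 to 41.8 CPM, followed by Epha3 (0.488), Epha5 (0.468), Efnb3 (0.467) and Sema3c (0.450). Sema7a (NM_001108153) had the smallest, 0.0909, with 223 to 311 CPM, a 1.39-fold span.

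Within the groups Sema3d took high and low values side by side. At week 11 it stood at 7.38, 18.3, 31.9, 34.1 and 40.0 CPM in NT3 rats and 8.96, 10.5, 30.6, 36.3 and 41.8 CPM in vehicle rats, against 2.61, 11.6, 29.4, 30.4 and 36.1 CPM in sham rats. At week 5 it stood at 9.39, 14.1, 33.6, 35.7 and 40.3 CPM in NT3 rats and 12.8, 19.0, 37.7, 38.6 and 40.1 CPM in vehicle rats, against 7.20, 8.02, 15.4 and 21.8 CPM in sham rats. Each group of 5 thus held 2 low rats and 3 rats near 30 to 40 CPM, and week 5 sham rats held none near that level. Sema7a showed no such split, at 237 to 301 CPM in week 5 NT3 rats and 223 to 280 CPM in week 5 vehicle rats, against 249 to 276 CPM in week 5 sham rats.

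The promoters of the most and the least variable member are shown, chosen by that spread alone. Whether base composition goes with spread among the members was not tested. They are the 250 bases before the gene's start from RefSeq on the GRCr8 build, in the direction of transcription, at chr4:23460972-23461221 on the minus strand for Sema3d and chr8:67244068-67244317 on the plus strand for Sema7a, with the SP1 box GGGCGG in capitals where it occurs on either strand.
Sema3d: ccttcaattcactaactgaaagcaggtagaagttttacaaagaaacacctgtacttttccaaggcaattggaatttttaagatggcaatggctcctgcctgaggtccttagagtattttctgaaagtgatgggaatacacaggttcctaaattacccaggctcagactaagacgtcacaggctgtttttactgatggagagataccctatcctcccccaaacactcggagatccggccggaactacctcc
Sema7a: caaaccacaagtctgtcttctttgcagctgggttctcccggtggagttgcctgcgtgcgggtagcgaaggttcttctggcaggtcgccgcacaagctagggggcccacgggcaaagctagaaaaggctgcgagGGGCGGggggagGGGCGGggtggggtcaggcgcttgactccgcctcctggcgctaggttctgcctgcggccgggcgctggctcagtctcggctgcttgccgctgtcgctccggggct
Sema3d had 44.8% G and C, 4 CG pairs and 0 SP1 boxes, and Sema7a had 67.6%, 20 CG pairs and 2 SP1 boxes. Among 36 promoters of 35 members in the table the median was 58.8% G and C with 13 CG pairs, 47.2% held the SP1 box and 0% the TATA box TATAAA, against 51.2%, 5 CG pairs, 30.5% and 12.9% among all 33469 promoters. The members had passed the minimum of 0.5 CPM, whereas all promoters were taken without regard to expression. Other expressed genes were not compared, so the difference is not shown to be particular to guidance genes. Both strands were searched for GGGCGG and TATAAA, and a match in these letters is a description and not a site of binding.

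**Figure D3:**
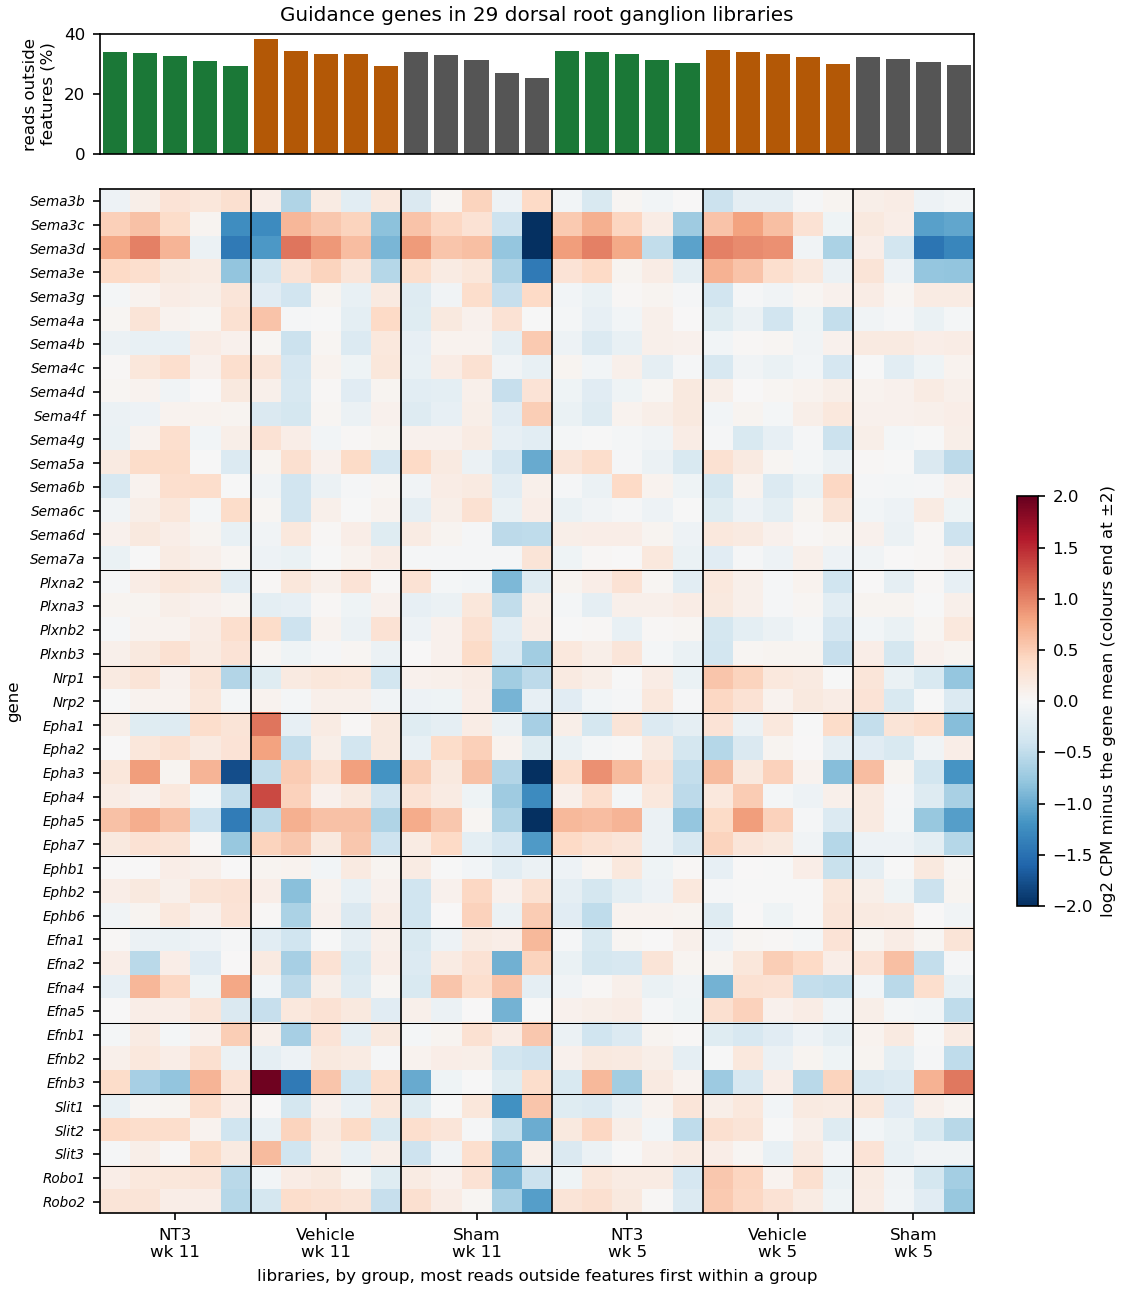
Log2 CPM of the 43 members minus each gene's mean over the 29 libraries, with genes by family and libraries by group, those with most reads outside annotated features (bars at the top, in percent) first within a group. Columns of single rats stand out across many genes, such as week 11 sham rat 8 with low Sema3c, Sema3d, Epha5 and Robo2, more than the blocks of groups do.

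Low and high values came together in single rats. Week 11 sham rat 8 held the lowest value of all 29 libraries for Sema3c (17.2 CPM), Sema3d (2.61 CPM), Epha4 (5.09 CPM), Epha5 (1.58 CPM), Slit2 (46.0 CPM) and Robo2 (155 CPM), and the highest for Sema4b (74.3 CPM), Sema7a (311 CPM), Efna1 (57.7 CPM) and Efnb1 (58.3 CPM). Rat 11 held the lowest Nrp2 (38.8 CPM), Robo1 (15.7 CPM) and Slit1 (81.4 CPM). These 2 rats also had the lowest shares of reads outside annotated features.

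After these values were seen, each transcript was fitted for its slope on that share, in percentage points, beside the 6 group means. EdgeR called 16 members higher and 7 lower with a larger share, 53.5% of members beside 53.9% of all tested transcripts (30.5% higher and 23.4% lower), so the members' share is that of the whole table. Those higher were Sema3c, Sema3d, Sema3e, Sema5a, Sema6d, Plxna2, Plxnb3, Nrp1, Epha3, Epha4, Epha5, Epha7, Efnb2, Slit2, Robo1 and Robo2. Those lower were Sema3g, Sema4b, Sema4f, Sema7a, Ephb6, Efna1 and Efnb1.

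The steepest slope was that of Sema3d, at 0.34 on the log2 scale per percentage point (SE 0.06, adjusted p = 9.9e-05, edgeR), which is 3.19-fold over 5 points. Epha5 and Epha3 followed at 2.37-fold and 2.33-fold over 5 points, and Sema3c at 2.09-fold. Epha4 had 1.75-fold (adjusted p = 3.7e-07, edgeR), Epha7 1.66-fold, Robo2 1.53-fold, Slit2 1.50-fold and Robo1 1.37-fold. Of those lower, Efna1 had a slope of -0.06 per point (SE 0.01), or 0.817-fold over 5 points, and Sema4f 0.831-fold. Rat 27 went against the slope of Sema3d, with the highest share and 8.96 CPM.

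All 23 members kept the sign of their slope under each of 33 other settings. Without rats 8 and 11 edgeR called 18 members, 17 of them among the 23 with the same direction. The count of 7 members lower was 2 without rat 8 or without rat 50, 3 without rat 54, 4 without rats 8 and 11, and 11 without rat 27. The share differs between arms, so the averaged comparison of vehicle with sham was read again with it as a covariate: members at an unadjusted p under 0.05 numbered 0 with the covariate, 9 without it and 4 without rats 8 and 27. For vehicle against sham at week 5 they numbered 2 with the covariate, 6 without it and 8 without rats 8 and 27.

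**Figure D4:**
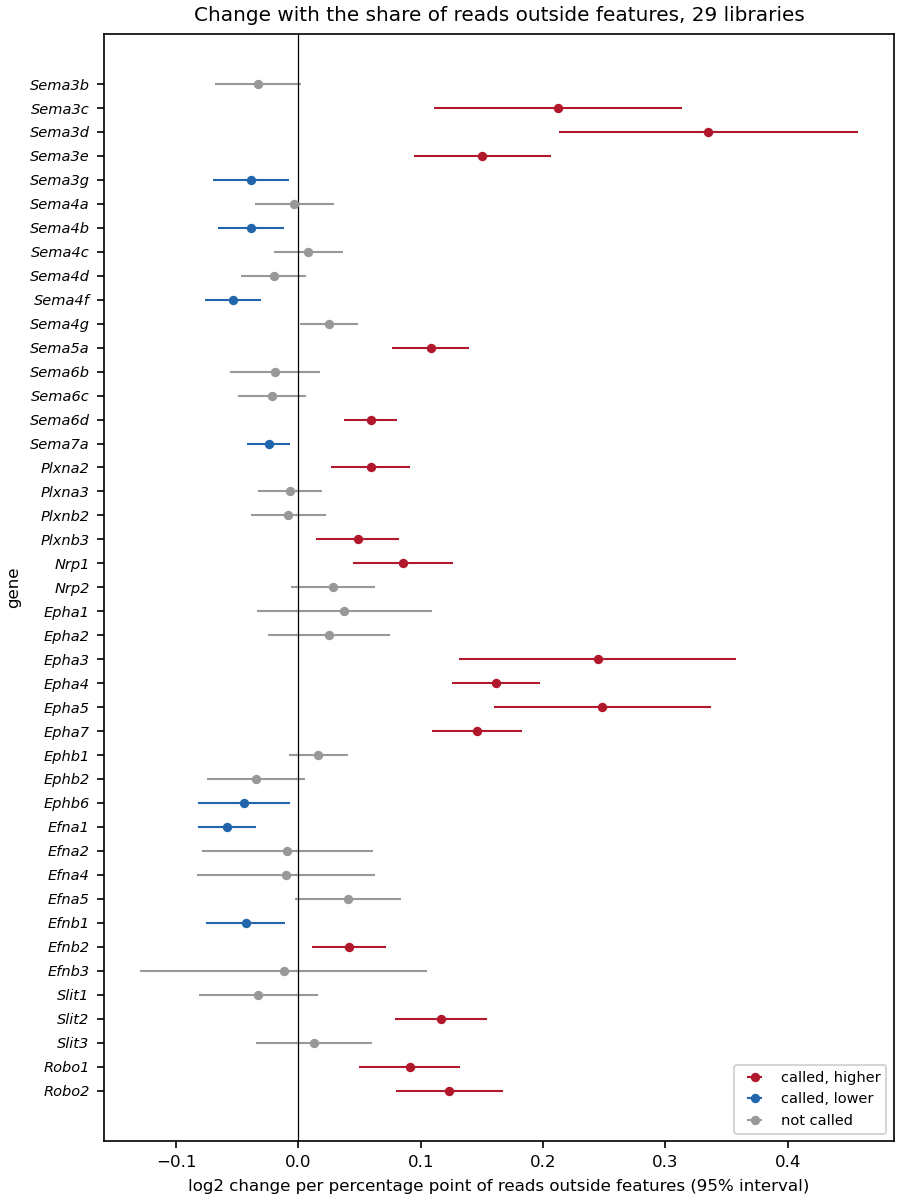
Slope of each member's log2 CPM per percentage point of reads outside annotated features, from the fit with 6 group means, with 95% intervals; red points were called higher, blue points lower and grey points not called by edgeR. Sema3d lies farthest above 0 at 0.34 and Efna1 among those below 0 at -0.06.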

How the data were processed

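RNA from C6 to C8 dorsal root ganglia of 29 rats was measured by stranded poly-A sequencing. Per the submitters' processing notes the tools were bcl2fastq 1.8.4, TopHat2, Picard and HTSeq with the rn6 (Rnor_6.0) build, without the role of each. The deposited values are whole-number read counts per RefSeq transcript after duplicate removal, per the file names and values, and no normalization was applied to them. A smaller deposited table held the same counts (443932 of 443932 values) and was not used. The 5 summary lines of each file stayed out of library sizes and tests. They gave the share of reads outside annotated features, and ambiguous reads were 4.55% to 6.72%.

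Symbols came from a RefSeq table of a later assembly, used for names and for the printed promoters: 17090 transcripts matched and 1002, with 4.56% of counts, did not. The analysis used edgeR 4.0.16 in R 4.3.3. Of all transcripts 12556 passed filterByExpr (6 groups, with 10 and 15 as the smallest count and total), and TMM factors were 0.974 to 1.061. The quasi-likelihood fit took in all libraries, with 1 mean for each of 6 groups and no covariate. The 14 contrasts were tested two-sided at an adjusted p under 0.05 (Benjamini-Hochberg over all transcripts). CPM values are TMM-scaled. They depend on transcript length, so levels are not compared between genes. Alternatives were DESeq2 1.42.0, limma 3.58.1 voom with quality weights, DESeq2 size factors, no filter, the groups of the comparison alone, summed transcripts, a covariate and left-out libraries. The pipeline was tested on simulated data. No library pair was identical (0), and 1 library came from each rat. The spread behind the p-values therefore joins differences between animals with differences between library preparations.

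The members and gene lists were chosen with earlier results of these data known. Members given by library had the smallest p of their family over the 9 comparisons of arms, or 1 of the 3 smallest of an averaged comparison. From the lists of signalling partners the 3 smallest p over the averaged comparisons were to be named, and some of these results are not reported here. Sema4a, Sema4b, Sema3d, Sema7a and the rats named as highest or lowest were chosen after their values were seen.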

Additional observations from a re-analysis of the deposited data

Results flagged for a closer look

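In 78 groups of 4 or 5 rats, of the 13 members given by library, the highest or lowest rat was compared with the rest by Dixon's ratio, and 5 groups had a rat that stood apart. Chance gives about 1 in 20 such groups, so 5 of 78 is near that rate.

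Plxnb3 stood at 103 CPM in week 5 sham rat 64, against 137 to 143 CPM in the other 3 rats of the group. Nrp2 stood at 38.8 CPM in week 11 sham rat 11, against 65.6 to 80.8 CPM in the other rats. Rat 11 also had the second lowest share of reads outside annotated features, 27.0%. Robo1 stood at 20.5 CPM in week 11 NT3 rat 69, against 32.8 to 35.1 CPM in the other rats, and the same rat held the lowest Nrp1 (38.0 CPM) and Sema3d (7.38 CPM) of its group. Ephb2 was lower in week 11 vehicle rat 57, at 4.03 CPM against 6.62 to 8.03 CPM, and higher in week 5 vehicle rat 1, at 8.55 CPM against 7.17 to 7.27 CPM.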

How the results depend on the processing

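The count of 0 guidance genes called by edgeR held in 11 of the 14 comparisons under every alternative run. In vehicle rats, week 11 against week 5, the count was 1 (Sema4a) without rat 17, which had the lowest Sema4a of the week 11 group. It was 0 to 1 over left-out libraries. For the other 2, limma voom with quality weights called members. For vehicle against sham at week 5 it called 5 of 43, beside 1079 of 12556 transcripts. These were Sema3c, Sema3e, Nrp1, Robo1 and Robo2, all higher, with Robo1 at 0.54. For week 11 against week 5 in sham rats it called 7 of 43, beside 2209 of 12556. These were Sema3c, Sema3d, Sema3e, Epha2 and Slit2, all higher, and Sema4d and Sema4f, both lower. In both comparisons the members' share was near that of the whole table. The cause of these calls was not tested. The median log2 fold change of the members was near 0, and its sign turned under at least 1 alternative in 7 of the 14 comparisons, among them vehicle against sham with weeks averaged (0.03, with a range of -0.02 to 0.09). For NT3 against vehicle and NT3 against sham with weeks averaged it kept its sign, at 0.00 to 0.05 and 0.06 to 0.13. The count of members called lower as more reads fell outside annotated features, 7, was 4 without rats 8 and 11 and ranged from 2 to 11 over left-out libraries, while the count higher, 16, moved by less than 1.5 times. These alternatives of the slope were chosen after the data were seen.

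Depth limits Epha1, Epha3, Efna2 and Efna4, with 403 to 651 reads over all libraries. No paired analysis was possible because each rat number belongs to 1 library, so no numbers are shared between groups. No gene lengths or genome of the authors' build were used here, and GC content and length were not checked.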
